A study of Mus musculus with 12 samples.

Results

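This report follows 34 genes of cholesterol and fatty acid synthesis and of their control by SREBP transcription factors in PGCLCs, cultured mouse cells that stand as a model of primordial germ cells. The 34 genes were listed by name. All 34 were found among the 35975 genes of the files, and all 34 were among the 16178 genes with enough counts to be tested. They fall into 7 genes of the mevalonate steps and 11 of the steps from squalene to cholesterol, which together form a sterol arm of 18 genes, 8 regulators and sterol transport genes, and a fatty acid arm of 8 genes. RNA was sequenced from 12 cultures of ES-E14TG2a, a mouse embryonic stem cell line, in 4 groups of 3 biological replicates. WT_40h is the wild type line, and TKO_40h, TKO_48h and TKO_96h are cells labelled TKO. As known from the study, these lack the DNA methyltransferases that Dnmt1, Dnmt3a and Dnmt3b encode. The number in each name is the time in hours that the cells spent as epiblast-like cells (EpiLCs), the state primed for germ cell induction. All groups had been kept in medium with LIF, inhibitors of Gsk3 and MEK and vitamin C, and germ cell fate was induced in all of them by 4 days of aggregate culture with LIF, EGF, stem cell factor and the bone morphogenetic proteins BMP4 and BMP8. WT was sequenced at 40 h only, the titles name no separate clones of either line, and whether aggregates were sorted before RNA was extracted is not stated.

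Cholesterol is built from acetyl-CoA through mevalonate, squalene and lanosterol, and fatty acids from the same acetyl-CoA through malonyl-CoA. The SREBP proteins, encoded by Srebf2 and Srebf1, are membrane-bound precursors that SCAP carries to the Golgi for cleavage when sterols are low and that INSIG proteins hold back when sterols are high. SREBP2 is known mainly for sterol genes, SREBP1 for fatty acid genes, and nuclear LXR receptors, which sense oxysterols, turn on efflux genes such as Abca1.

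Libraries held 6570180 to 9114128 estimated counts, and 13530 to 15409 genes reached 10 counts. TKO_48h replicate 1 stood apart from the other libraries, with 14.59% of its counts in its top 10 genes and the fewest genes at 10 counts. Within TKO_48h, replicate 1 was the highest library for 20 of the 34 genes (35.5% of all genes) and replicate 2 the lowest for 23 (33% of all genes). Within TKO_96h, replicate 1 was the highest for 18 (35.9% of all genes) and replicate 2 the lowest for 17 (30.4% of all genes). As a check of genotype, TKO_40h and WT_40h differed in the targeted genes, with Dnmt1 at 120 ± 8.61 against 438 ± 12 CPM, Dnmt3a at 64.1 ± 3.97 against 405 ± 41.4 CPM and Dnmt3b at 47.8 ± 8.27 against 185 ± 28.8 CPM (mean ± SD, n = 3; CPM are counts scaled to a common library size). Germ cell markers (Prdm1, Tfap2c, Prdm14, Nanos3, Dppa3, Kit, Itgb3 and Dnd1) were all detected in every group, and their summed level was 181 to 193 CPM in TKO_96h, 280 to 285 CPM in TKO_48h, 212 to 222 CPM in TKO_40h and 204 to 247 CPM in WT_40h.

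The synthesis genes differed most between TKO_96h and TKO_48h: 17 of the 34 fell and 0 rose, where 19.5% of all tested genes were called, 10.7% lower and 8.82% higher. A gene is called at an adjusted p below 0.05 in edgeR's quasi-likelihood test over all genes. In this comparison 31 of the 34 log2 fold changes were below 0 (49.1% of all genes), and the median log2 fold change was -0.53, against 0.01 over all genes. Between TKO_96h and TKO_40h, 10 genes fell and 1, Abca1, rose, with 12.1% of all genes called, 7.2% lower and 4.94% higher. Between TKO_48h and TKO_40h, 3 genes rose (Msmo1, Srebf2 and Scd1) and 0 fell, with 5.49% of all genes called, 2.57% higher and 2.92% lower. That count of 3 depended on single libraries: it was 0 without TKO_40h replicate 1 or replicate 3, 1 without TKO_40h replicate 2 or TKO_48h replicate 1, 2 without TKO_48h replicate 3 and 11 without TKO_48h replicate 2. These comparisons share libraries (TKO_96h is in the first and the second, TKO_48h in the first and the third, TKO_40h in the second and the third), so their counts are not independent. With an offset for effective transcript length, which differs between libraries where the estimated mix of transcripts differs, 12 genes were called between TKO_96h and TKO_48h, 2 between TKO_96h and TKO_40h (Fdps and Scd2) and 0 between TKO_48h and TKO_40h.

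Genotype at equal priming was asked with TKO_40h and WT_40h. By edgeR's test 0 of the 34 genes were called, where 3.1% of all genes were, 1.62% higher and 1.48% lower. DESeq2 called 1 gene lower, Lss. At an unadjusted p below 0.05 there were 6, all lower in TKO_40h (Acat2, Sqle, Lss, Msmo1, Sc5d and Abca1), where 7.71% of all genes were lower by that measure. Of the 34 log2 fold changes 26 were below 0, against 50.1% of all genes, with a median log2 fold change of -0.14. The replicates of TKO_40h lay wholly below those of WT_40h for 11 genes (12.6% of all genes) and wholly above for Fdps and Npc1 (13.1% of all genes).

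**Figure D1:**
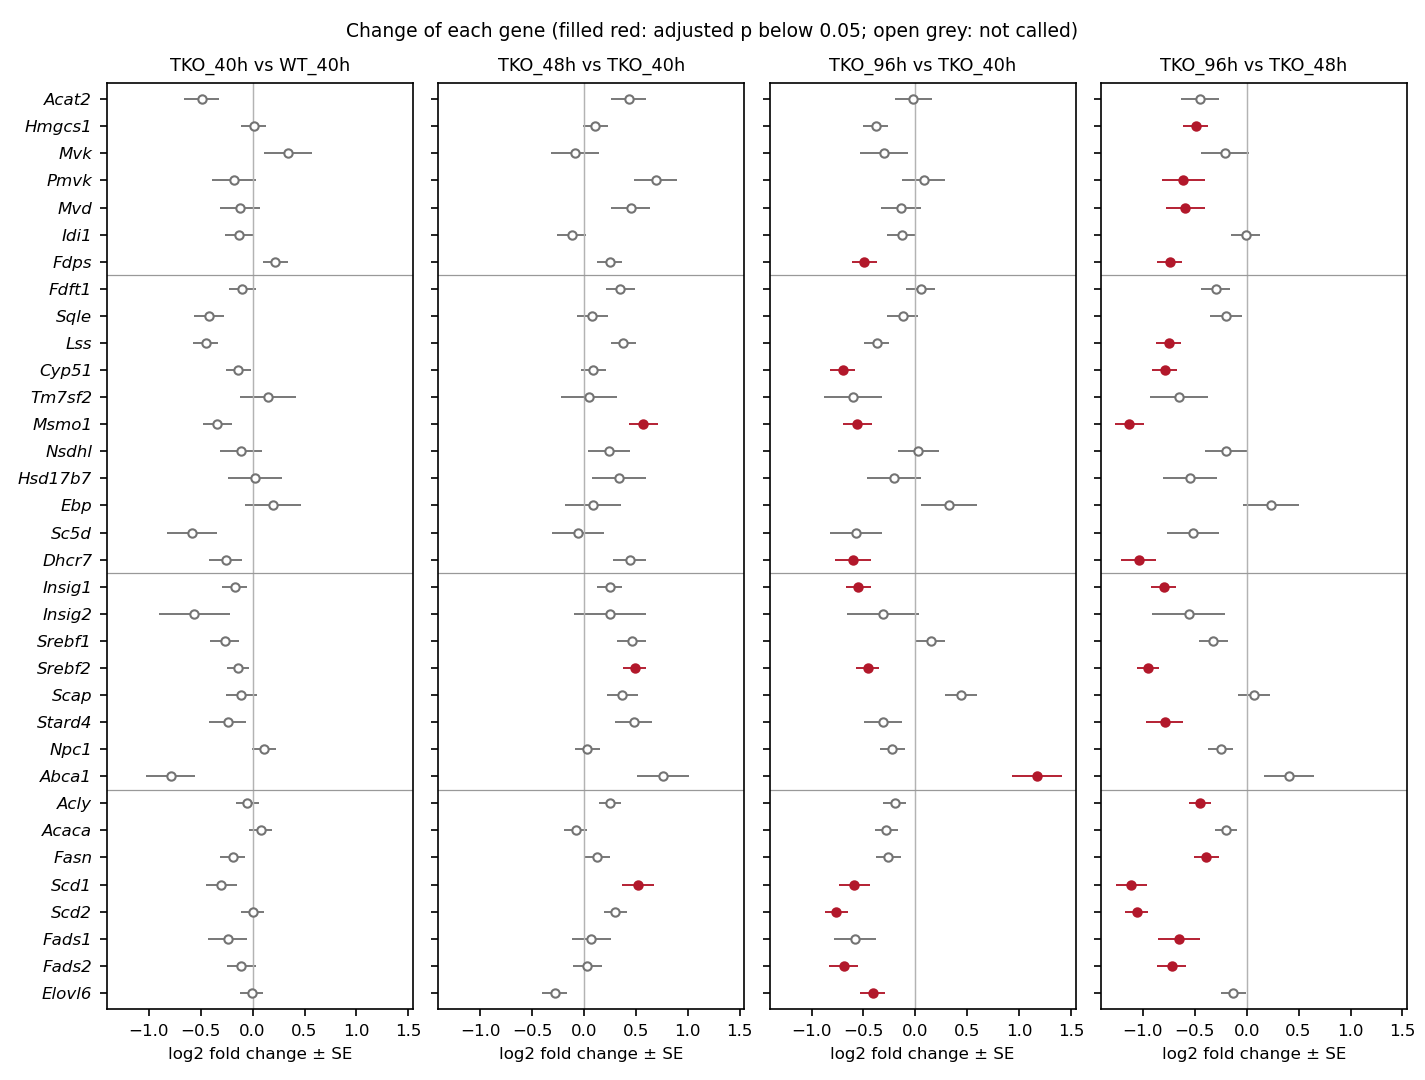
Log2 fold change ± SE of each of the 34 genes in the 4 comparisons, with genes grouped from top to bottom as mevalonate steps, squalene to cholesterol steps, regulators and transport, and fatty acid arm; filled red points are called and open grey points are not. In the panel of TKO_96h against TKO_48h, 17 points are filled, all to the left of 0, while the panel of TKO_40h against WT_40h has none.

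Across the groups, the 3 TKO_96h libraries lay below all 9 others for 13 of the 34 genes, against 6.8% of all genes, and above all others for 0, against 6.41%. These 13 were Hmgcs1, Fdps, Lss, Cyp51, Tm7sf2, Msmo1, Dhcr7, Insig1, Srebf2, Acly, Scd1, Scd2 and Fads2. TKO_96h had the lowest mean for 26 genes, TKO_40h for 6 and WT_40h for 2. The highest mean was in TKO_48h for 18 genes, in WT_40h for 11, in TKO_96h for 3 and in TKO_40h for 2. In bulk RNA, fewer cells of a type and less RNA per cell cannot be told apart.

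**Figure D2:**
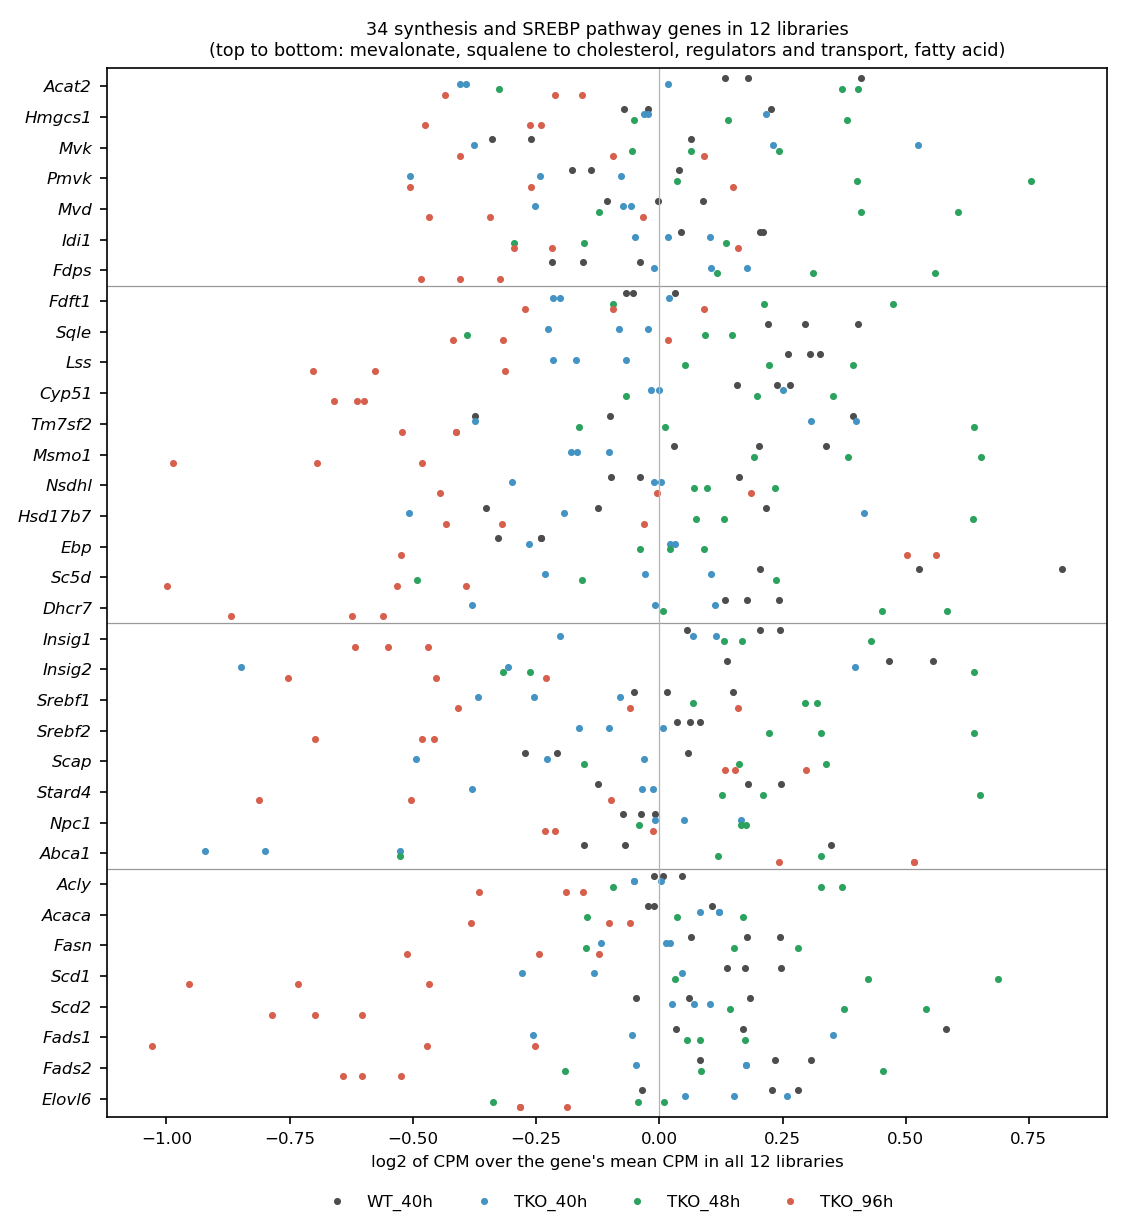
Each of the 34 genes in each of the 12 libraries, as log2 of its CPM over its own mean in all libraries, with 1 point per library coloured by group. The TKO_96h points lie to the left of all others for 13 genes, while for Ebp, Scap and Abca1 the TKO_96h group has the highest mean.

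Of the mevalonate steps, 4 of 7 genes fell from TKO_48h to TKO_96h (10.7% of all genes): Hmgcs1, Pmvk, Mvd and Fdps. Hmgcs1, the HMG-CoA synthase (GRCm38 chromosome 13, 119690379 to 119708260, plus strand), was at 186, 183 and 158 CPM in TKO_96h. It was at 286, 212 and 242 CPM in TKO_48h, at 255, 215 and 216 CPM in TKO_40h and at 257, 216 and 209 CPM in WT_40h. The TKO_96h libraries lay below all others, and the other 3 groups overlapped. Hmgcs1 fell by 0.49 ± 0.12 on the log2 scale from TKO_48h (1.4-fold, adjusted p = 0.0087), while the difference from TKO_40h, -0.38 ± 0.12, was not called (adjusted p = 0.052). Hmgcs1 passed in that comparison under 7 of 15 other settings (adjusted p = 0.02 to 0.048), and with any 1 library left out it did not.

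Fdps, which makes farnesyl diphosphate (chromosome 3, 89093588 to 89101959, minus strand), was at 86.2, 77.1 and 81.5 CPM in TKO_96h. Values were 159, 117 and 134 CPM in TKO_48h, 116, 122 and 107 CPM in TKO_40h and 92.8, 105 and 96.9 CPM in WT_40h. Again the TKO_96h libraries were the lowest 3 of the 12. Fdps fell by 0.74 ± 0.12 from TKO_48h (1.67-fold, adjusted p = 0.0002) and by 0.49 ± 0.12 from TKO_40h (adjusted p = 0.0091; 0.05 without TKO_40h replicate 2). Of its 31-base words 27.9% occur in another gene, mostly the predicted gene Gm43738, so part of its count is uncertain.

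Pmvk and Mvd, the kinase and the decarboxylase that lead to isopentenyl diphosphate, had log2 fold changes of -0.61 ± 0.21 and -0.59 ± 0.19 from TKO_48h to TKO_96h (adjusted p = 0.046 and 0.035). Their replicates overlapped. The call of Pmvk was lost without TKO_48h replicate 1 or 3 or TKO_96h replicate 2 or 3 (adjusted p = 0.075 to 0.24), and that of Mvd without TKO_48h replicate 1 or 3 or TKO_96h replicate 1 or 2 (adjusted p = 0.098 to 0.16). Over all 15 other settings these calls were lost under 6 and 7. Idi1, the isomerase of that product (chromosome 13, 8885501 to 8892451, plus strand), was called in no comparison. It was at 83.7, 74.6 and 83.4 CPM in WT_40h, 77.7, 69.9 and 73.2 CPM in TKO_40h, 79.5, 65.1 and 59 CPM in TKO_48h and 80.8, 62.2 and 59 CPM in TKO_96h. Its TKO_48h and TKO_96h values overlapped nearly in full, with a log2 fold change of -0.01 ± 0.14 between them. Acat2, the cytosolic thiolase, and Mvk, the mevalonate kinase, were not called either, with log2 fold changes of -0.45 ± 0.18 and -0.21 ± 0.23 from TKO_48h to TKO_96h. Acat2 shares 43.7% of its words with its near copy Acat3, and 18.8% of those of Idi1 occur in another gene, so these counts are uncertain too.

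Between squalene and cholesterol, 4 of 11 genes fell from TKO_48h to TKO_96h (10.7% of all genes): Lss, Cyp51, Msmo1 and Dhcr7. Msmo1, a methylsterol oxidase that helps strip methyl groups from lanosterol (chromosome 8, 64718139 to 64733792, minus strand), had the largest log2 fold change of the 34 in this comparison. It was at 88.4, 62.3 and 76.3 CPM in TKO_96h, 194, 141 and 161 CPM in TKO_48h, 109, 115 and 110 CPM in TKO_40h and 156, 126 and 142 CPM in WT_40h. TKO_96h was lowest and TKO_40h next, each without overlap, while TKO_48h and WT_40h overlapped. From TKO_48h Msmo1 fell by 1.13 ± 0.14 (2.18-fold, adjusted p = 1e-05) and from TKO_40h by 0.56 ± 0.14 (adjusted p = 0.011). It rose by 0.57 ± 0.14 from TKO_40h to TKO_48h (adjusted p = 0.018). The second of these calls was lost without TKO_96h replicate 2 (adjusted p = 0.07), and the third without any 1 of the TKO_40h libraries or TKO_48h replicate 1 (adjusted p = 0.058 to 0.086). Both were also lost with the offset for effective length.

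Dhcr7, a reductase of the last step to cholesterol (chromosome 7, 143823145 to 143848410, plus strand), was at 30.1, 24.3 and 28.8 CPM in TKO_96h. It was at 60.7, 44.6 and 66.5 CPM in TKO_48h, 34.1, 48 and 44.1 CPM in TKO_40h and 50.2, 52.5 and 48.7 CPM in WT_40h. All TKO_96h values were below all others. Dhcr7 fell by 1.04 ± 0.17 from TKO_48h (2.06-fold, adjusted p = 0.0002) and by 0.6 ± 0.17 from TKO_40h (adjusted p = 0.024; 0.087 to 0.12 without TKO_40h replicate 2 or 3 or TKO_96h replicate 2). The call from TKO_40h was also lost with the offset for effective length.

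Cyp51, the lanosterol demethylase (chromosome 5, 4081145 to 4104746, minus strand), had 3 nearly equal TKO_96h values, 61, 58.5 and 60.4 CPM. The other groups overlapped, at 118, 88.2 and 106 CPM in TKO_48h, 92.3, 110 and 91.3 CPM in TKO_40h and 111, 103 and 109 CPM in WT_40h. Cyp51 fell by 0.79 ± 0.12 from TKO_48h (adjusted p = 0.00012) and by 0.7 ± 0.12 from TKO_40h (adjusted p = 0.00063). The call from TKO_40h was lost with the offset for effective length.

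Lss, the lanosterol synthase (chromosome 10, 76531588 to 76557138, plus strand), was at 97, 94 and 98.3 CPM in WT_40h, 74.8, 69.8 and 67.5 CPM in TKO_40h, 91.5, 81.3 and 103 CPM in TKO_48h and 63.1, 48.2 and 52.6 CPM in TKO_96h. WT_40h lay above TKO_40h and TKO_48h above TKO_40h, and TKO_96h lay below every other library. Lss fell by 0.75 ± 0.12 from TKO_48h to TKO_96h (1.68-fold, adjusted p = 0.00026). The adjusted p was 0.051 for TKO_40h against WT_40h (log2 fold change -0.45 ± 0.12), 0.083 for TKO_48h against TKO_40h and 0.058 for TKO_96h against TKO_40h. These 3 lay close to the threshold. Against WT_40h, Lss passed under 6 of 14 other settings (adjusted p = 0.0066 to 0.046) and under none with 1 library left out. From TKO_40h to TKO_96h it passed under 3 of 15, among them without TKO_96h replicate 1 (adjusted p = 0.025), and from TKO_40h to TKO_48h only without TKO_48h replicate 2 (adjusted p = 0.034).

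Sqle, the squalene epoxidase and a slow step of the pathway (chromosome 15, 59315077 to 59331192, plus strand), was called in no comparison. It was at 95.6, 84.3 and 88.7 CPM in WT_40h, 61.8, 68.3 and 71.2 CPM in TKO_40h, 77.1, 55.2 and 80.1 CPM in TKO_48h and 54.1, 58 and 73.2 CPM in TKO_96h. The 3 WT_40h libraries lay above all 9 TKO libraries, and the 3 TKO groups overlapped. The log2 fold change of Sqle was -0.42 ± 0.14 between TKO_40h and WT_40h (adjusted p = 0.14) and -0.2 ± 0.15 between TKO_96h and TKO_48h (adjusted p = 0.39).

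The other 6 genes of these steps were called in no comparison. Fdft1 (squalene synthase), Tm7sf2 (a sterol reductase), Nsdhl and Hsd17b7 (demethylation of sterols) and Sc5d (a desaturase) had log2 fold changes from TKO_48h to TKO_96h of -0.3 ± 0.14, -0.65 ± 0.28, -0.2 ± 0.2, -0.55 ± 0.26 and -0.52 ± 0.25. Ebp, the sterol isomerase, was the 1 gene of the sterol arm with a value above 0 there, 0.23 ± 0.27, and its TKO_96h libraries were spread over 16.9, 17.6 and 8.29 CPM. Tm7sf2, Nsdhl, Hsd17b7, Ebp and Sc5d had group means between 9.91 and 22.7 CPM, so their standard errors were larger than those of the other genes of these steps. Of the words of Fdft1 31.9% occur in another gene.

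Since SREBP proteins act with the factor NF-Y, the 300-base windows from 250 bases before to 50 after the start (RefSeq, GRCm38.p6) were searched on both strands for the core of the sterol regulatory element, TCACNCCAC, and for the NF-Y box, CCAAT. Windows of 26 of the 34 genes were matched. Fdps, Fdft1, Sqle, Stard4, Npc1, Scd1, Scd2 and Fads1 had no window and were not searched. The sterol core lay in 1 of the 26, Hmgcs1, and in 1.4% of the 27025 genes with a window. The NF-Y box lay in 20 of the 26 (76.9%) and in 41.1% of all genes with a window. A gene counted if any of its windows held the motif, and some genes, among them Dhcr7, Insig2 and Srebf1, have several. Of all 32851 windows 37.4% held the box. The genes with a window were not limited to those tested here. A match is a run of letters and no measure of binding. The window of Hmgcs1 (chr13:119690101-119690400, plus strand) is shown because it holds both motifs, and that of Msmo1 (chr8:64733529-64733828, minus strand), chosen after its values were seen, because Msmo1 changed most from TKO_48h to TKO_96h and its window holds 3 boxes. Capitals mark the motifs, with CCAAT on the other strand read as ATTGG.
Hmgcs1: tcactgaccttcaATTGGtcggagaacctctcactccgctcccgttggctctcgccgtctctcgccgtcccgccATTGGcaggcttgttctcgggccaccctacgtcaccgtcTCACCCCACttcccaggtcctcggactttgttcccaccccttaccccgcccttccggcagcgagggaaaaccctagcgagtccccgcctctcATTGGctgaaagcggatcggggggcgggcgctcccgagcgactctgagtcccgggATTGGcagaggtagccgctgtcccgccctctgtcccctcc
Msmo1: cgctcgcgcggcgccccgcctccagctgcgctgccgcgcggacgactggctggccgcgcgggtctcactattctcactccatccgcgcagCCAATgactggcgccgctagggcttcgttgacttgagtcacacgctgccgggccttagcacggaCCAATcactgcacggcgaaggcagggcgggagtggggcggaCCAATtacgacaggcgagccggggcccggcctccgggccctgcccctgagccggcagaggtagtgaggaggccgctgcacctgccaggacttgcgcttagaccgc

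In the Hmgcs1 window the sterol core begins 137 bases before the start, and 3 of the 4 NF-Y boxes lie before the start as well. The 3 boxes of Msmo1 begin 160, 96 and 55 bases before its RefSeq start, all on the strand of the gene. The GENCODE span of Msmo1 given above reaches further upstream, to 64733792, so the 3 boxes lie within that span.

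Among the regulators, Srebf2 and Insig1 fell in both comparisons of TKO_96h with the other TKO groups. Of the sterol genes, 8 of 18 fell from TKO_48h (10.7% of all genes) and 4 of 18 from TKO_40h (7.2% of all genes). Srebf2, which encodes SREBP2 (chromosome 15, 82147181 to 82205379, plus strand), was at 160, 186 and 189 CPM in TKO_96h and at 404, 303 and 326 CPM in TKO_48h. Its values were 242, 261 and 232 CPM in TKO_40h and 266, 275 and 271 CPM in WT_40h. The 4 groups did not overlap and stood in the order TKO_96h, TKO_40h, WT_40h and TKO_48h. Srebf2 fell by 0.95 ± 0.11 from TKO_48h to TKO_96h (1.93-fold, adjusted p = 7.2e-06) and by 0.46 ± 0.11 from TKO_40h to TKO_96h (adjusted p = 0.011), and rose by 0.49 ± 0.11 from TKO_40h to TKO_48h (adjusted p = 0.014). The fall from TKO_40h was not called without TKO_40h replicate 2 or TKO_96h replicate 1 (adjusted p = 0.061 and 0.053), nor the rise without TKO_40h replicate 1 or 3 or TKO_48h replicate 1 (adjusted p = 0.063 to 0.078). Both calls were also lost with the offset for effective length. The log2 fold change of Srebf2 between TKO_40h and WT_40h, -0.14 ± 0.11, was not called (adjusted p = 0.6).

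Insig1, which holds the SREBP precursors in the endoplasmic reticulum and is itself a known SREBP target (chromosome 5, 28071363 to 28078662, plus strand), was at 56.3, 50.8 and 53.2 CPM in TKO_96h. It was at 87.6, 85.4 and 105 CPM in TKO_48h, 81.8, 67.8 and 84.4 CPM in TKO_40h and 81.1, 89.8 and 92.4 CPM in WT_40h. The TKO_96h values were the 3 lowest. Insig1 fell by 0.8 ± 0.12 from TKO_48h (1.74-fold, adjusted p = 0.00014) and by 0.55 ± 0.12 from TKO_40h (adjusted p = 0.006). The call from TKO_40h was lost with the offset for effective length. Insig2, its relative, was counted at group means of 6.66 to 12.1 CPM and was called in no comparison.

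Srebf1, which encodes SREBP1 (chromosome 11, 60199089 to 60222581, minus strand), was not called in any comparison. It was at 79.7, 72.7 and 69.4 CPM in WT_40h, 68, 55.7 and 60.3 CPM in TKO_40h, 89.8, 88.3 and 75.4 CPM in TKO_48h and 54.2, 80.3 and 69 CPM in TKO_96h. The TKO_48h libraries lay above those of TKO_40h, and TKO_96h overlapped all other groups. The log2 fold change of Srebf1 was 0.46 ± 0.14 between TKO_48h and TKO_40h (adjusted p = 0.058; 0.031 to 0.044 with DESeq2, no filter or the robust fit), -0.32 ± 0.14 between TKO_96h and TKO_48h (adjusted p = 0.12; 0.048 without TKO_96h replicate 2) and 0.15 ± 0.14 between TKO_96h and TKO_40h (adjusted p = 0.57). The difference between Srebf2 and Srebf1 in response was not tested.

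SREBP1 forms arise from different start sites, but the files do not settle their shares here. Of the TPM (a level per transcript length) in the 3 coding transcripts of Srebf1, the longest, with 4299 bases, held 62.1 ± 14.2% in WT_40h, 73.1 ± 18.5% in TKO_40h, 51.7 ± 14.2% in TKO_48h and 52.3 ± 28.7% in TKO_96h (mean ± SD, n = 3). Within TKO_96h the share of this transcript of Srebf1 ran from 24.2 to 81.7%, a wider range than the distance between any of the group means.

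Scap, the escort of the precursors, was called in no comparison. Its level in TKO_96h was 60.3, 59.5 and 66.7 CPM, above the 53.1, 38.5 and 46.3 CPM of TKO_40h without overlap (log2 fold change 0.44 ± 0.15, adjusted p = 0.068; 0.049 without TKO_40h replicate 1). With an offset for transcript length that value changed sign, to -0.3 (adjusted p = 0.64).

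Of the transport genes, Stard4 fell and Abca1 rose, in different comparisons. Stard4, a carrier of sterols through the cytosol (chromosome 18, 33199355 to 33213862, minus strand), was at 49.4, 37.3 and 30.1 CPM in TKO_96h, 83, 61.2 and 57.7 CPM in TKO_48h, 52.4, 40.6 and 51.6 CPM in TKO_40h and 48.5, 59.9 and 62.7 CPM in WT_40h. TKO_96h lay below TKO_48h but overlapped the 40 h groups, and the fall from TKO_48h was 0.79 ± 0.18 (1.73-fold, adjusted p = 0.0044). That call was lost under 1 of 15 other settings.

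Abca1, which exports cholesterol from the cell (chromosome 4, 53030787 to 53159895, minus strand), was at 19.6, 23.7 and 23.7 CPM in TKO_96h and 9.52, 8.75 and 11.5 CPM in TKO_40h. It was at 11.5, 20.8 and 18 CPM in TKO_48h and at 15.8, 14.9 and 21.1 CPM in WT_40h, both overlapping TKO_96h. Abca1 rose by 1.17 ± 0.24 on the log2 scale from TKO_40h to TKO_96h (adjusted p = 0.0032), the only gene of the 34 called higher there. TKO_40h was the lowest group, with a log2 fold change of -0.79 ± 0.24 against WT_40h (adjusted p = 0.089). Both values depended on transcript length: with an offset for it they became 0.43 (adjusted p = 0.71) and 0.21 (adjusted p = 0.94), the second with the opposite sign. Npc1, which exports cholesterol from lysosomes, was called in no comparison, with log2 fold changes between -0.25 and 0.11.

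**Figure D3:**
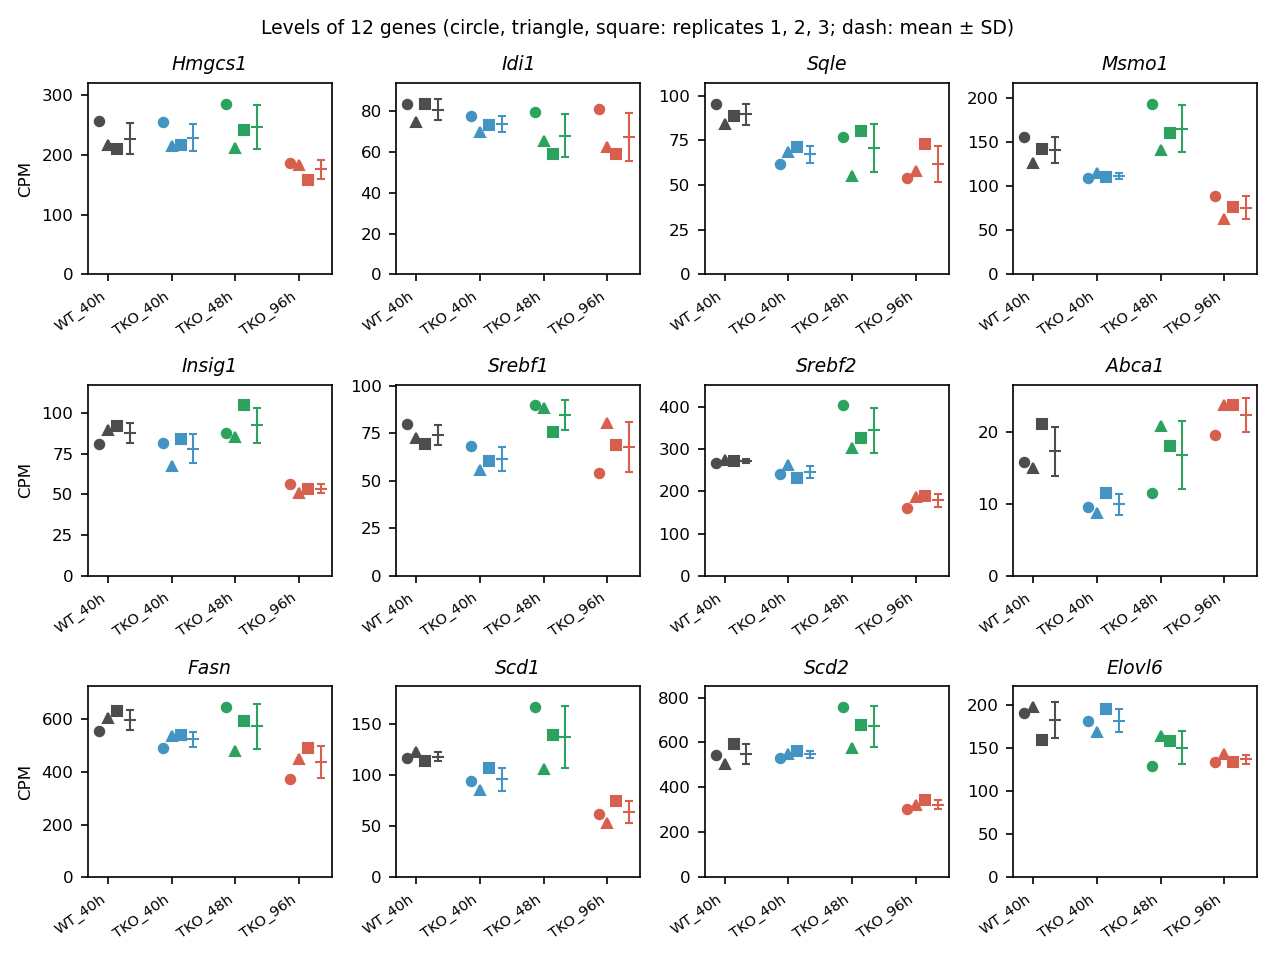
CPM of 12 of the genes in each library, with 3 points per group marked by replicate number and the group mean ± SD beside them; each vertical axis starts at 0. Msmo1, Srebf2, Scd1 and Scd2 are lowest in TKO_96h without overlap, Abca1 has its lowest mean in TKO_40h, and Idi1 overlaps between TKO_48h and TKO_96h.

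In the fatty acid arm 6 of 8 genes fell from TKO_48h to TKO_96h (Acly, Fasn, Scd1, Scd2, Fads1 and Fads2), against 10.7% of all genes. From TKO_40h to TKO_96h 4 of 8 fell (Scd1, Scd2, Fads2 and Elovl6), against 7.2% of all genes. The desaturases moved most. Scd2, a stearoyl-CoA desaturase that makes monounsaturated fatty acids (chromosome 19, 44293674 to 44306864, plus strand), was at 303, 322 and 344 CPM in TKO_96h. It was at 760, 577 and 678 CPM in TKO_48h, 532, 549 and 561 CPM in TKO_40h and 545, 506 and 594 CPM in WT_40h. TKO_96h lay below all other libraries, and TKO_48h lay above TKO_40h. Scd2 fell by 1.06 ± 0.11 from TKO_48h (2.08-fold, adjusted p = 1e-06) and by 0.76 ± 0.11 from TKO_40h (adjusted p = 8.2e-05), the smallest adjusted p of the 34 in both.

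Scd1, its neighbour on the chromosome (44394455 to 44407879, minus strand), was at 62.4, 53.5 and 75 CPM in TKO_96h, 167, 106 and 139 CPM in TKO_48h, 94.6, 85.4 and 107 CPM in TKO_40h and 117, 123 and 114 CPM in WT_40h. TKO_96h was again below all others, and TKO_40h was below WT_40h. Scd1 fell by 1.11 ± 0.15 from TKO_48h (2.15-fold, adjusted p = 3.5e-05) and by 0.59 ± 0.15 from TKO_40h (adjusted p = 0.014), and rose by 0.52 ± 0.15 from TKO_40h to TKO_48h (adjusted p = 0.046). The second call was lost without TKO_40h replicate 3 or TKO_96h replicate 2 (adjusted p = 0.088 and 0.08) and with the offset for effective length. With 1 library left out, the third held only without TKO_48h replicate 2 (adjusted p = 0.0052; 0.068 to 0.2 without any other library of those groups). Over all 15 other settings the third was lost under 8. Of the words of Scd1 and Scd2, 8.2% and 6.2% occur in another gene.

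Fads2 and Fads1, the desaturases of polyunsaturated fatty acids, lie side by side on chromosome 19 (10062765 to 10101746, minus strand, and 10182888 to 10196877, plus strand). Fads2 was at 52.3, 48.2 and 49.5 CPM in TKO_96h, 103, 65.8 and 79.7 CPM in TKO_48h, 72.7, 84.9 and 84.9 CPM in TKO_40h and 88.4, 93.1 and 79.6 CPM in WT_40h. TKO_96h was the lowest group without overlap, and Fads2 fell by 0.72 ± 0.14 from TKO_48h (adjusted p = 0.0013) and by 0.69 ± 0.14 from TKO_40h (adjusted p = 0.0027). Each of these calls was lost under 1 of 15 other settings, that from TKO_40h with the offset for effective length. Fads1 was at 22.3, 32.8 and 38.2 CPM in TKO_96h, 47.3, 48.2 and 51.3 CPM in TKO_48h, 38.1, 58.1 and 43.8 CPM in TKO_40h and 51.2, 46.6 and 68.1 CPM in WT_40h. TKO_96h touched the TKO_40h range at its upper end, and Fads1 fell by 0.65 ± 0.2 from TKO_48h (adjusted p = 0.024; 0.07 and 0.12 without TKO_48h replicate 3 or TKO_96h replicate 1), while -0.58 ± 0.2 from TKO_40h was not called (adjusted p = 0.058; 0.046 and 0.032 without TKO_40h replicate 1 or TKO_96h replicate 3). Over all 15 other settings the call of Fads1 from TKO_48h was lost under 4.

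The genes that supply and build the chain changed less. Acly, which makes cytosolic acetyl-CoA for both arms (chromosome 11, 100476353 to 100528000, minus strand), was at 283, 320 and 328 CPM in TKO_96h, 472, 342 and 458 CPM in TKO_48h, 352, 366 and 352 CPM in TKO_40h and 377, 362 and 367 CPM in WT_40h. TKO_96h lay below all other libraries by a small distance, and Acly fell by 0.45 ± 0.11 from TKO_48h (1.37-fold, adjusted p = 0.0078). That call was lost under 2 of 15 other settings.

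Fasn, the fatty acid synthase (chromosome 11, 120805846 to 120824547, minus strand), was at 373, 449 and 489 CPM in TKO_96h, 647, 480 and 591 CPM in TKO_48h, 490, 537 and 540 CPM in TKO_40h and 556, 602 and 630 CPM in WT_40h. TKO_96h overlapped TKO_48h by 1 library, and Fasn fell by 0.39 ± 0.12 between them (1.31-fold, adjusted p = 0.025; 0.053 to 0.11 without TKO_48h replicate 1 or 3 or TKO_96h replicate 1 or 2). Over all 15 other settings the call of Fasn was lost under 6. Acaca, which makes malonyl-CoA, was called in no comparison, with -0.2 ± 0.11 from TKO_48h to TKO_96h, and 33.4% of its words occur in another gene.

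Elovl6, which lengthens palmitate (chromosome 3, 129532355 to 129638495, plus strand), took another course. It was at 191, 198 and 159 CPM in WT_40h, 181, 169 and 195 CPM in TKO_40h, 129, 164 and 158 CPM in TKO_48h and 134, 143 and 134 CPM in TKO_96h. TKO_48h was below TKO_40h without overlap, where 9 other genes of the 34 were above it without overlap (12% of all genes in either direction), but the log2 fold change of -0.28 ± 0.12 was not called (adjusted p = 0.19). Elovl6 fell by 0.41 ± 0.12 from TKO_40h to TKO_96h (adjusted p = 0.024; 0.063 to 0.11 without TKO_40h replicate 1 or 3 or TKO_96h replicate 1 or 3), and TKO_96h overlapped TKO_48h (-0.13 ± 0.12, adjusted p = 0.47). The call from TKO_40h to TKO_96h was also lost with the offset for effective length.

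To compare the arms, the mean log2 CPM of the 18 sterol genes and that of the 8 fatty acid genes were taken in each library. Both arms were lowest in TKO_96h, below all 9 other libraries. The sterol arm was at 5.31, 5.07 and 5.13 in TKO_96h, 5.77, 5.44 and 5.77 in TKO_48h, 5.39, 5.47 and 5.43 in TKO_40h and 5.58, 5.55 and 5.57 in WT_40h. The fatty acid arm was at 6.94, 7.09 and 7.19 in TKO_96h, 7.79, 7.48 and 7.71 in TKO_48h, 7.48, 7.58 and 7.59 in TKO_40h and 7.65, 7.64 and 7.66 in WT_40h. In both arms TKO_40h also lay below WT_40h, by 0.14 and 0.1, and TKO_48h overlapped both, with replicate 2 low in each arm.

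The fall from TKO_48h to TKO_96h was 0.49 in the sterol arm and 0.59 in the fatty acid arm. From TKO_40h to TKO_96h the means differed by -0.26 in the sterol arm and by -0.47 in the fatty acid arm, and from TKO_40h to TKO_48h by 0.23 and 0.11. The sterol arm minus the fatty acid arm, taken within each library, averaged -2.09 ± 0.01 in WT_40h, -2.12 ± 0.04 in TKO_40h, -2 ± 0.06 in TKO_48h and -1.91 ± 0.24 in TKO_96h (mean ± SD, n = 3). Its change was -0.03 from WT_40h to TKO_40h, 0.12 from TKO_40h to TKO_48h, 0.21 from TKO_40h to TKO_96h and 0.09 from TKO_48h to TKO_96h, against a pooled SD between replicates of 0.12. By these means, the change from TKO_40h to TKO_96h was the 1 larger than that SD, and TKO_96h replicate 1 decides it. That library was at -1.63, with the highest sterol mean and the lowest fatty acid mean of its group, and the other 2 were at -2.02 and -2.06. Without it the change from TKO_40h was 0.08 and that from TKO_48h was -0.04. The difference also did not overlap between TKO_48h, at -2.03, -2.03 and -1.93, and TKO_40h, at -2.08, -2.11 and -2.16, and that change of 0.12 was 0.09 to 0.14 with 1 library left out. With the median over genes in place of the mean, the 4 changes were -0.43, 0.5, 0.06 and -0.44 in the same order, so their sizes depend on that choice, and the sign of the last one does.

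**Figure D4:**
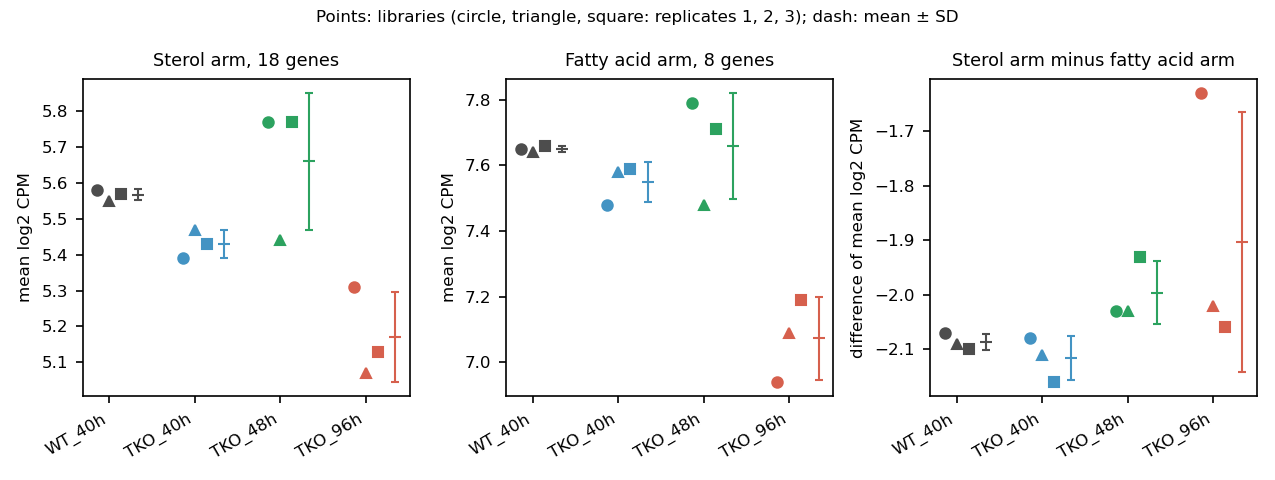
Mean log2 CPM of the 18 sterol genes and of the 8 fatty acid genes, and their difference, in each library, with replicates marked by shape and the group mean ± SD beside them; the vertical axes do not start at 0. Both arms are lowest in TKO_96h, and in the difference TKO_96h replicate 1, at -1.63, stands above all other libraries.

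By counts of calls, 8 of 18 sterol genes and 6 of 8 fatty acid genes fell from TKO_48h to TKO_96h, against 10.7% of all genes. From TKO_40h to TKO_96h 4 of 18 and 4 of 8 fell, against 7.2% of all genes. In the latter comparison the replicates lay wholly lower for 8 of 18 sterol genes and 7 of 8 fatty acid genes, against 16.9% of all genes. The summed level of the fatty acid genes in WT_40h was 2141 to 2222 CPM over 8 genes, and that of the sterol arm 1198 to 1276 CPM over 18. The part of these levels in the counts of calls was not tested, nor was the difference in counts between the arms.

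Per length, in TPM, Scd2 had the highest mean of the 34 genes in WT_40h, 87.7 ± 10.3, followed by Acly at 72.2 ± 6.36, Msmo1 at 64.4 ± 12.1, Fdps at 55 ± 2.56 and Srebf2 at 50.5 ± 2.9. Neighbours in that order, such as Acly and Msmo1, lay within their SDs of each other. The lowest were Abca1 at 1.17 ± 0.2, Hsd17b7 at 3.64 ± 1.09 and Ebp at 4.87 ± 1.08. In TKO_96h the order began with Acly at 60.5 ± 5.6 and Scd2 at 54.5 ± 4.37 TPM, which overlap within their SDs, then Fdps at 47 ± 2.55. For this order TPM were compared within a group only. The 3 transcripts of highest TPM, the first of them with 226 bases, hold 42.3 to 65.9% of the TPM of a library. Their share shifts all other values between groups.

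Other genes of the same pathways, from lists set apart from the 34, moved in part. Of 16 other fatty acid and lipid genes, 7 fell and 0 rose from TKO_48h to TKO_96h (10.7% of all genes fell), led by Me1, the malic enzyme that yields NADPH (log2 fold change -1.56 ± 0.13, adjusted p = 7.5e-08), and Acsl3, an acyl-CoA synthetase (-0.7 ± 0.13, adjusted p = 0.00058). From TKO_40h to TKO_48h 4 of the 16 rose (Acss2, Me1, Acacb and Lpin1; 2.57% of all genes), and from TKO_40h to TKO_96h 3 fell (Me1, Acsl3 and Acsl4; 7.2% of all genes). Of 12 other isoprenoid and sterol genes, 1 fell in each comparison with TKO_96h, Acat1, a mitochondrial thiolase of ketone and isoleucine breakdown. That is 8.3% of the list, near the 10.7% and 7.2% of all genes that fell in these comparisons. Mbtps1, the protease of the first SREBP cleavage, fell from TKO_48h to TKO_96h (-0.28 ± 0.1, adjusted p = 0.049), and Mbtps2 and Fbxw7 were called in no comparison.

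A hypoxia list of 11 genes (Egln1, Egln3, Car9, Ndrg1, Aldoa, Ldha, Pgk1, Bnip3, Vegfa, Slc2a1 and Ero1l) was called in larger shares than the synthesis genes. Its summed level was 824 to 878 CPM in TKO_96h, 5157 to 6559 CPM in TKO_48h, 3831 to 4270 CPM in TKO_40h and 4611 to 4769 CPM in WT_40h. All 11 hypoxia genes fell from TKO_48h to TKO_96h, where 17 of the 34 synthesis genes and 10.7% of all genes did. From TKO_40h to TKO_96h 10 of the 11 and 10 of the 34 fell (7.2% of all genes). From TKO_40h to TKO_48h 10 of the 11 and 3 of the 34 rose (2.57% of all genes). Endoderm markers (12 genes) summed to 26.7 to 64.5 CPM in TKO_96h, where Afp and Apoa1 had no counts, 77 to 117 CPM in TKO_48h, 124 to 164 CPM in TKO_40h and 81.8 to 131 CPM in WT_40h. Afp and Apoa1 were low in the other groups too, at means of 1.62 to 3.33 and 2.27 to 2.94 CPM. Much of the sum came from Apob and Cubn, at means of 4.78 and 16.2 CPM in TKO_96h and 33.7 and 49.2 CPM in TKO_40h. Mean Sox17 was not lower in TKO_96h than in TKO_40h (1.93 against 1.81 CPM). Of the 11 endoderm markers tested, 3 fell from TKO_48h to TKO_96h and 4 from TKO_40h to TKO_96h. Of all genes, 10.7% fell and 8.82% rose in the first of these comparisons, and 7.2% fell and 4.94% rose in the second. Of the 8 germ cell markers, 3 fell in each of these comparisons. Against TKO_40h, mean Prdm1, Tfap2c and Dppa3 were lower in TKO_96h, and mean Prdm14, Nanos3, Kit, Itgb3 and Dnd1 were higher. Neural markers (4 genes) went the other way, with 2 called higher against TKO_48h and 1 against TKO_40h. They summed to 122 to 136 CPM in TKO_96h, 72.2 to 87.1 CPM in TKO_48h, 83.6 to 99.1 CPM in TKO_40h and 100 to 117 CPM in WT_40h. Against WT_40h that sum rested on Tubb3, at a mean of 51.2 CPM in TKO_96h and 21.1 CPM in WT_40h. Mean Pax6 (33.3 against 35.3 CPM) and Sox1 (40.1 against 47.2 CPM) were below WT_40h, and Neurod1 (5.41 against 5.25 CPM) was near it. Of the 3 core pluripotency genes (Pou5f1, Sox2 and Nanog), 1 rose from TKO_48h and 2 from TKO_40h. Of 4 trophoblast markers tested 1 rose and 1 fell from TKO_48h and 2 fell from TKO_40h, of 2 mesoderm markers tested 1 fell in each, and of 5 endothelial markers 0 were called. The part of any of these lists in the changes of the synthesis genes was not tested.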

How the data were processed

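RNA sequencing of 12 PGCLC libraries was analysed from the authors' deposited tables, which give estimated counts per transcript, transcript and effective lengths in bases, and TPM. The submitters' processing notes name Trim Galore 0.6.2, kallisto and the build GRCm38 (mm10). A version of kallisto is not given in the sources used here, nor is its transcript index. Per the labels' protocols, libraries were made from DNase-treated total RNA with a stranded kit for small inputs. The authors' deposited TPM are scaled to length and depth within a library.

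Of 119414 transcripts, 116728 (97.8%) were matched by ID to GENCODE M21. Unmatched transcripts held 2.68 to 4.32% of the counts and were left out. Sums of the estimated counts over each gene's transcripts, rounded to whole numbers, gave 6286329 to 8820668 counts per library. The filter on low counts (filterByExpr by group, minimum count 10 and minimum total 15) left 16178 genes. edgeR 4.0.16 was fitted to all 12 libraries with TMM factors of 0.928 to 1.062, 1 mean per group and no replicate block. F-tests are two-sided, and calls need a Benjamini-Hochberg adjusted p below 0.05 over all tested genes. The biological coefficient of variation was 0.241. A standard error is the size of the log2 fold change over the square root of F. CPM use TMM library sizes, and arm means use log2 CPM with a prior count of 2, with no test. A share of words is the share of a gene's 31-base runs, over its GENCODE transcripts, that also occur in another gene.

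Values of every library are given for up to 16 called genes from the smallest adjusted p on, and always for Hmgcs1, Sqle, Idi1, Insig1, Srebf1, Scd1 and Fasn; other genes are given by counts and ranges. The 34 genes, their lists and the tests were chosen with earlier results of these data known. Other gene lists give up to 2 examples of smallest adjusted p. Some genes of SREBP processing are not reported here, so that list is given by single genes and not as a count. Replicates are labelled as biological, with no further detail on what they share. The p-values set a group difference against the spread between these cultures, estimated over all groups together. They do not cover spread between clones or lines. The scripts were tested on simulated counts. Alternatives tried were DESeq2 1.42.0, size factors of the RLE type, no filter, a robust fit, a replicate block, protein-coding genes alone, an offset for effective length, a fit of 2 groups alone, leaving out each library and, for the arms, another prior count, TPM, the median over genes and no Scd genes. Leaving out TKO_48h replicate 1 and TKO_96h replicate 1 together was chosen after seeing the data. Other days named in the series description are not analysed here.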

Additional observations from a re-analysis of the deposited data

How the results depend on the processing

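Between TKO_96h and TKO_48h the count of calls was 12 to 18 genes under the settings that keep all libraries, 13 to 19 with 1 library left out, and 13 without both libraries that stand apart. Of these 17 calls, 10 were kept under all 15 settings (Hmgcs1, Fdps, Lss, Cyp51, Msmo1, Dhcr7, Insig1, Srebf2, Scd1 and Scd2). Of the 11 calls between TKO_96h and TKO_40h, only Scd2 was kept under all 15. That count was 2 with the effective length offset and 8 to 12 with 1 library left out. Of the 3 calls between TKO_48h and TKO_40h, 0 were kept throughout: the count was 5 with DESeq2, with no filter and with the robust fit, 0 with the length offset, and 0 to 11 with 1 library left out. Calls were gained as well: Fads1 passed between TKO_96h and TKO_40h under 6 of 15 settings, and Pmvk between TKO_48h and TKO_40h under 5 of 15. Between TKO_40h and WT_40h the count was 1 with DESeq2, the robust fit and protein-coding genes alone, 2 with no filter, 5 with only the 2 groups compared, all lower, and 0 with any 1 library left out.

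With the replicate number as a block, 1, 3, 15 and 17 genes were called in TKO_40h against WT_40h, TKO_48h against TKO_40h, TKO_96h against TKO_40h and TKO_96h against TKO_48h. Over all tested genes the numbers showed no pairing: over 18 pairs with the same number, deviations from the group means correlated at -0.06 to 0.051. That correlation does not measure an effect of replicate number shared by the 34 genes, which was not tested. In TKO_48h and TKO_96h replicate 1 was the highest for 20 and 18 of the 34 and replicate 2 the lowest for 23 and 17. In TKO_40h replicate 1 was the lowest for 14.

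The sterol arm minus the fatty acid arm, in the same order, was -0.43, 0.5, 0.06 and -0.44 with the median over genes, with the opposite sign to the mean in the last comparison alone, and -0.07 for TKO_96h against TKO_48h without Scd1 and Scd2. With 1 library left out it ranged from -0.05 to -0.01, from 0.09 to 0.14, from 0.08 to 0.29 and from -0.04 to 0.17. With the length offset, Abca1 was at 0.21 between TKO_40h and WT_40h and Scap at -0.3 between TKO_96h and TKO_40h, each with the opposite sign. Apart from the values above, the causes of these changes were not tested. Depth limits the low genes: the standard error of the log2 fold change from TKO_48h to TKO_96h was 0.35 for Insig2, at group means of 6.66 to 12.1 CPM, and 0.11 for Srebf2, at 178 to 344 CPM.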

Other observations

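Genes of sterol handling outside the 34 changed too. Of 12 tested, 5 fell and 0 rose from TKO_48h to TKO_96h, where 10.7% of all genes fell: Lrp1, Soat1, Vldlr, Scarb1 and Lpcat3. Lrp1, an endocytic receptor for lipoproteins, was at 118, 155 and 145 CPM in TKO_96h, 397, 393 and 355 CPM in TKO_48h, 167, 181 and 176 CPM in TKO_40h and 353, 313 and 347 CPM in WT_40h. It fell by 1.45 ± 0.11 on the log2 scale from TKO_48h to TKO_96h (adjusted p = 1.7e-08) and by 0.95 ± 0.11 from WT_40h to TKO_40h (adjusted p = 6e-05), and rose by 1.13 ± 0.11 from TKO_40h to TKO_48h (adjusted p = 8.3e-06). In CPM the 4 groups did not overlap and stood in the order TKO_96h, TKO_40h, WT_40h and TKO_48h, with the widest gap between TKO_40h and WT_40h. In mean TPM, which also shift between groups, WT_40h was at 25.7 and TKO_48h at 16.4, so that order depended on the measure.

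Soat1, which esterifies cholesterol for storage, was at 9.79, 13.3 and 16.7 CPM in TKO_96h against 44.7, 49.4 and 40.8 CPM in TKO_48h and 40.3, 44.7 and 43.7 CPM in TKO_40h. It fell by 1.76 ± 0.18 and by 1.69 ± 0.18 from these groups (adjusted p = 1.1e-06 and 2.6e-06). In TKO_40h against WT_40h, Lrp1 was the 1 gene of the 12 called (3.1% of all genes). Of the 16 other fatty acid and lipid genes, Lpin1, a phosphatidate phosphatase, fell there by 1.02 ± 0.2 (adjusted p = 0.0069), and Hacd2, a dehydratase of fatty acid elongation, rose by 0.53 ± 0.14 (adjusted p = 0.046).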
